A study of Mus musculus and Rattus norvegicus with 32 samples.

Results

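The effect of 1 oral dose of trichloroethylene (TCE) on liver transcripts was compared between mouse and rat, gene by gene. For each species the effect was the log2 difference between the TCE and the corn oil arrays, and the mouse effect was set against the rat effect. Genes were taken as the same where the annotated symbol was identical in both species, ignoring case. This gave 3056 genes, out of 8251 mouse and 4736 rat genes that had a probe set with 1 symbol. A shared symbol is not a test of common descent, and levels were never compared between species.

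Male B6C3F1 mice and male SD rats, 8 weeks old, received a single gavage of TCE at 1500 mg/kg in corn oil, or of the oil without TCE. Livers were taken 18 h later and polyA RNA was hybridized to Affymetrix arrays, with 4 arrays in each of the 4 groups. These are 16 of the 32 arrays of the series; the others are the groups given TCE or oil daily for 14 days. Nothing in the labels states that the 4 arrays of a group stem from 4 animals, and p-values then reflect only how far these samples spread, which may be technical.

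TCE is a chlorinated solvent that liver cytochrome P450 enzymes oxidize to chloral and then to trichloroacetate and trichloroethanol, while glutathione conjugation is a smaller route. Trichloroacetate is known to activate the nuclear receptor PPARα, which switches on fatty acid oxidation in peroxisomes, microsomes and mitochondria. Rodent liver is known for this peroxisome response, and mouse and rat are known to differ in tumours after long exposure. A separate system, the transcription factor NRF2, is known to induce glutathione transferases and other detoxifying enzymes through antioxidant response elements.

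Ehhadh and Gsta3 stand for the 2 sides of the contrast: Ehhadh, an enzyme of peroxisomal fatty acid oxidation, changed in mouse, and Gsta3, an alpha-class glutathione transferase, changed in rat. Their mouse promoters, which both hold a match, are shown from among those searched for a target sequence of NRF2. Most promoters searched held none, as counted below. Each is the 250 bases before the RefSeq start site in the mouse build GRCm38.p6, read 5′ to 3′ on the strand of the gene, with matches to the antioxidant response element core TGACNNNGC in capitals. The Ehhadh promoter lies on the minus strand at chr16:21787835-21788084 and the Gsta3 promoter on the plus strand at chr1:21240335-21240584.
Ehhadh: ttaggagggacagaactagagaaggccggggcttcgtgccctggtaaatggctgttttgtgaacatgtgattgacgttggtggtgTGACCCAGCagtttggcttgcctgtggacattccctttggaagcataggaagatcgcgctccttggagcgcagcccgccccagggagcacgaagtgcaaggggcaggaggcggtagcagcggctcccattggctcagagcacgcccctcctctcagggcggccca
Gsta3: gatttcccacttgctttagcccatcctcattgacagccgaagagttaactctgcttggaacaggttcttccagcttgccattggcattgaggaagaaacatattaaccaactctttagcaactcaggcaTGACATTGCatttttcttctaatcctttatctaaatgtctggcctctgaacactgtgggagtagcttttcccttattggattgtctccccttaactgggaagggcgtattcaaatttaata

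The match lay at -165 to -157 from the start site in Ehhadh and at -121 to -113 in Gsta3. On either strand, 12.8% of the 2457 promoters of shared genes held this core, and a match is given as a description of the sequence; binding was not tested. The half-site AGGTCA, the core of many nuclear receptor elements, was in neither window and in 12.4% of the promoters of shared genes. Promoters of rat were not used here. Of the 29 genes with the largest called differences or shared changes, 22 had a mouse promoter to search. With 1 start site per gene, the core was in 2 of 8 promoters of genes with a higher mouse effect. It was in 1 of 6 promoters of genes with a lower mouse effect and 0 of 8 of genes changed alike.

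The deposited tables give every probe set relative to its oil median: a ratio of 1 equals the median of the 4 oil arrays in that species and schedule, and no signal level is held. Whether the tissue expressed the defining genes of hepatocytes or other cells could therefore not be checked. Within groups, the median SD on the log2 scale was 0.34 on mouse oil arrays, 0.35 on mouse TCE arrays, 0.39 on rat oil arrays and 0.38 on rat TCE arrays. The array medians moved in opposite directions: the median log2 ratio of TCE arrays lay 0.09 below that of oil arrays in mouse and 0.13 above it in rat. That species difference was -0.22 (exact permutation test over arrays, two-sided, p = 0.000408). The log2 ratio of the Gapdh control probe sets at the 3′ end minus that at the 5′ end, which grows as the 5′ end of transcripts is lost, was 1.51 ± 0.95 (SD, n = 4) on mouse TCE arrays and -0.03 ± 0.17 (SD, n = 4) on mouse oil arrays (exact p = 0.0571, with 0.0286 the smallest p that 4 against 4 arrays allow). It was 0.26 ± 1.14 (SD, n = 4) on rat TCE arrays and -0.04 ± 0.18 (SD, n = 4) on rat oil arrays (exact p = 0.886). It exceeded 1 on mouse TCE 1, 3 and 4 and on rat TCE 4, so genes read differently on these arrays are pointed out below. Fits without such arrays left out 10 of the 32, repeated-dose arrays included, and kept 1 mouse and 3 rat single-dose TCE arrays.

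Of the 3056 genes, 129 (4.22%) had a mouse effect that differed from the rat effect at a Benjamini-Hochberg adjusted p under 0.05 (limma). The mouse effect was higher for 46 (1.51%) and lower for 83 (2.72%). The differences called ranged from 0.72 to 4.04 upward and from -0.72 to -3.36 downward, with a median size of 1.30 on the log2 scale. The median difference of all shared genes was -0.19, since the median change was -0.11 in mouse and 0.10 in rat. After each array was centred on its own median, 110 genes (3.60%) were higher in mouse and 37 (1.21%) lower. The 46 genes called higher and 37 of the 83 called lower passed on both scalings, and no gene changed direction between them. With quantile normalization 5 genes were called higher and 2 lower, all among the 129.

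The within-species tests of these genes are read against those of all shared genes, of which 286 passed in mouse and not in rat and 52 in rat and not in mouse. Of the 129, 63 also passed the test of TCE against oil within mouse and not within rat, and 23 passed within rat and not within mouse. A further 43 passed in neither species alone, and none passed in both. The 2 effects had opposite signs for 104 of the 129. Among the 83 called on both scalings, 67 had opposite signs after centring. Of all shared genes, 53.6% had effects of the same sign, and 55.3% after centring. Choosing genes by a large difference favours opposite signs, so these counts add no separate evidence. In at least 1 species, 117 of the 129 had all 4 TCE arrays beyond all 4 oil arrays, 82 of them in mouse and 55 in rat. The same choice of genes favours such separation. That separation was seen for 611 (20.0%) of all shared genes in mouse and 431 (14.1%) in rat.

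**Figure D1:**
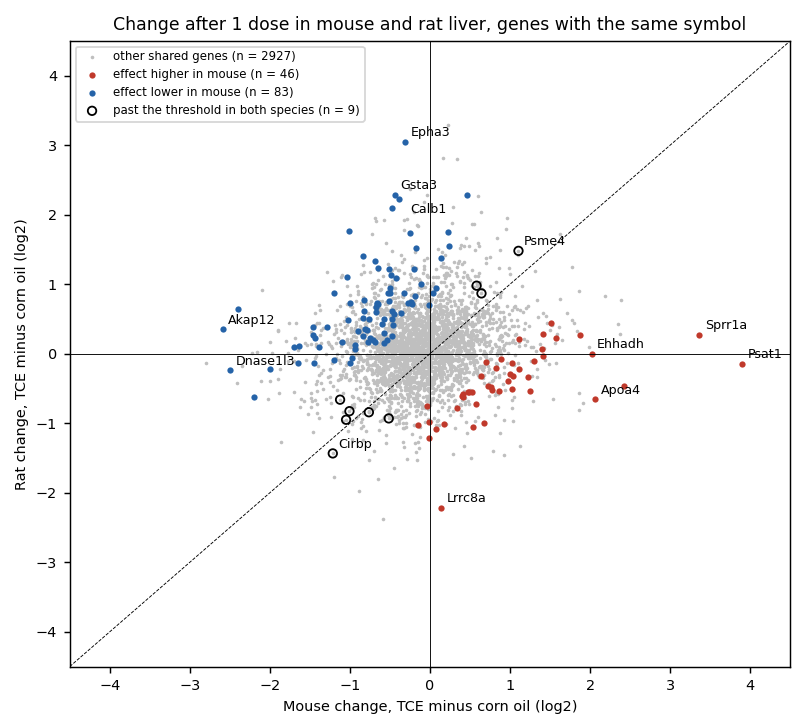
Each point is 1 of 3056 genes, with the mouse change (TCE minus corn oil, log2) on the horizontal axis and the rat change on the vertical axis; the dashed line marks equal changes. The 46 red points (higher in mouse) and 83 blue points (lower in mouse) differed between the species at adjusted p under 0.05, and the 9 ringed genes passed the test in both species.

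Within species, 135 shared genes rose (4.42%) and 160 fell (5.24%) in mouse, and 41 rose (1.34%) and 20 fell (0.654%) in rat. Over all probe sets, 517 of 12422 rose (4.16%) and 514 fell (4.14%) in mouse, against 106 of 8740 (1.21%) and 44 (0.503%) in rat. Centring gave 721 rises and 355 falls in mouse and 77 rises and 107 falls in rat. Quantile normalization gave 43 rises and 16 falls in mouse, and 2 rises and no fall in rat. Leaving out 1 array gave between 519 and 1187 probe sets in mouse and between 22 and 128 in rat. Without the arrays of Gapdh above 1, the counts were 18 in mouse and 29 in rat.

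Genes that passed the test in 1 species mostly had a change of the same sign in the other. The 135 genes that rose in mouse had a median change of 0.88 there and 0.25 in rat, and 68.9% had a positive rat change. The 160 genes that fell in mouse had medians of -0.90 and -0.22, and 70.6% had a negative rat change. In the other direction, 65.9% of the 41 genes that rose in rat had a positive mouse change, with medians of 1.16 in rat and 0.21 in mouse. Of the 20 genes that fell in rat, 90.0% had a negative mouse change, with medians of -0.98 and -0.50. For comparison, 53.6% of all shared genes had effects of the same sign. After centring these shares were 60.7%, 76.2%, 70.7% and 75.0%, against 55.3% of all. The median in the species that chose the genes is raised by that choice, so the smaller median in the other species is no measure of a weaker response. Across all 3056 genes the 2 effects correlated weakly (Pearson r = 0.136, Spearman rho = 0.145, a description across genes that share 8 arrays per species).

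Psat1 showed the largest of the called differences. It encodes phosphoserine aminotransferase, an enzyme of serine synthesis and a known target of the stress transcription factor ATF4. Its ratios on mouse TCE arrays were 14.4, 13, 9.12 and 11.1, against 1.41, 0.290, 0.778 and 1.22 on mouse oil arrays. On rat TCE arrays they were 0.722, 1.02, 1.23 and 0.692, against 1.11, 0.846, 1.06 and 0.944 on rat oil arrays. All mouse TCE arrays were far above the oil arrays, while the rat groups overlapped. The change was 3.89 ± 0.62 (SE) in mouse and -0.14 ± 0.21 in rat, a difference of 4.04 ± 0.67 (limma adjusted p = 0.000643). The 3 other rat probe sets of Psat1 changed by 1.21, -0.03 and 0.58, and none passed the test. Slc3a2, the heavy chain shared by several amino acid transporters and also an ATF4 target, had mouse TCE ratios of 3.52, 4.5, 3.32 and 3.35 against 0.887 to 1.10 on oil arrays. Its rat TCE ratios were 0.984 to 1.53 and overlapped the oil arrays at 0.778 to 1.32. The mouse change of 1.88 ± 0.18 exceeded the rat change of 0.27 ± 0.29 by 1.6 ± 0.34 (adjusted p = 0.00548).

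Ehhadh, the bifunctional enzyme of peroxisomal β-oxidation and a classical PPARα target, and the apolipoprotein gene Apoa4 were the genes of lipid handling among the 10. Ehhadh ratios were 4.06, 3.74, 5.78 and 3.36 on mouse TCE arrays and 1, 0.997, 0.956 and 1.15 on mouse oil arrays. On rat TCE arrays they were 0.496, 0.988, 1.10 and 1.16, and on rat oil arrays 0.551, 1.14, 0.953 and 1.05. The mouse groups did not overlap and the rat groups did. Ehhadh rose by 2.02 ± 0.17 in mouse, with a rat change of -0.00022 ± 0.31, a difference of 2.02 ± 0.35 (adjusted p = 0.00111). Apoa4, which is carried on triglyceride-rich particles, read 6.81, 4.39, 3.84 and 3 on mouse TCE arrays and 0.844, 0.900, 1.36 and 1.10 on mouse oil arrays. In rat it read 0.717, 0.659, 0.521 and 0.501 on TCE arrays and 0.949, 1.05, 0.633 and 1.19 on oil arrays. Apoa4 was thus higher on every mouse TCE array, and its rat values lay on the other side of 1 with overlap. Its changes of 2.06 ± 0.30 and -0.65 ± 0.32 differed by 2.71 ± 0.44 (adjusted p = 0.000643).

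Sprr1a encodes a cross-linked protein of cornified epithelia, rich in proline, and had ratios of 5.59 to 19.2 on mouse TCE arrays and 0.669 to 1.22 on mouse oil arrays. Its rat values were 1.06 to 1.42 on TCE arrays and 0.847 to 1.28 on oil arrays. The difference was 3.09 ± 0.50 (adjusted p = 0.000643). S100a10, the light chain partner of annexin A2, was 2.01 to 2.77 on mouse TCE arrays against 0.849 to 1.24 on oil arrays, and 0.534 to 0.916 against 0.730 to 1.04 in rat. Its difference was 1.78 ± 0.28 (adjusted p = 0.000643), although a second mouse probe set of S100a10 changed by -0.03 and the mean of its probe sets gave a difference of 1.14 (adjusted p = 0.0327).

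Tgfb1, the cytokine that drives matrix deposition by stellate cells, followed the arrays of 5′ loss. Its ratios were 7.62, 6.01 and 12.6 on mouse TCE 1, 3 and 4, and 1.32 on mouse TCE 2, the only mouse TCE array with a Gapdh value below 1. Mouse oil arrays read 0.838 to 1.10, rat TCE arrays 0.377 to 0.963 and rat oil arrays 0.728 to 1.20. The difference of 2.89 ± 0.71 (adjusted p = 0.0188) became 1.30 with the Gapdh value as a covariate (adjusted p = 0.155) and 1.05 without the arrays of Gapdh above 1 (adjusted p = 0.318). Mapk14, the p38α stress kinase, differed by 1.67 ± 0.34 (adjusted p = 0.00462), with mouse TCE ratios of 1.25 to 1.87 and rat TCE ratios of 0.331 to 0.650. This rested on 1 of 6 rat probe sets: the other 5 changed by -0.50 to 0.42, and with the mean of all probe sets the adjusted p was 0.249.

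Cd14 and Lrrc8a read low on rat TCE arrays. Cd14, the co-receptor for bacterial lipopolysaccharide on macrophages, read 1.20 to 1.62 on mouse TCE arrays (oil 0.710 to 1.10) and 0.347 to 0.753 on rat TCE arrays (oil 0.803 to 1.39). Neither species' change passed its own test (0.54 with adjusted p = 0.0597 and -1.05 with adjusted p = 0.0676), and the difference of 1.59 ± 0.32 did (adjusted p = 0.00445). In whole liver, fewer cells of a type and less RNA per cell cannot be told apart. Lrrc8a, a subunit of the volume-regulated anion channel, read 0.144 to 0.346 on rat TCE arrays against 2.77, 1.5, 0.384 and 0.498 on rat oil arrays, and 0.952 to 1.25 on mouse TCE arrays. Its difference of 2.36 ± 0.64 (adjusted p = 0.0336) lost the call when any 1 of 10 arrays was left out (mouse oil 1, 3 or 4, mouse TCE 1 or 2, rat oil 1 or 2, rat TCE 1, 2 or 4; adjusted p up to 0.0845).

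**Figure D2:**
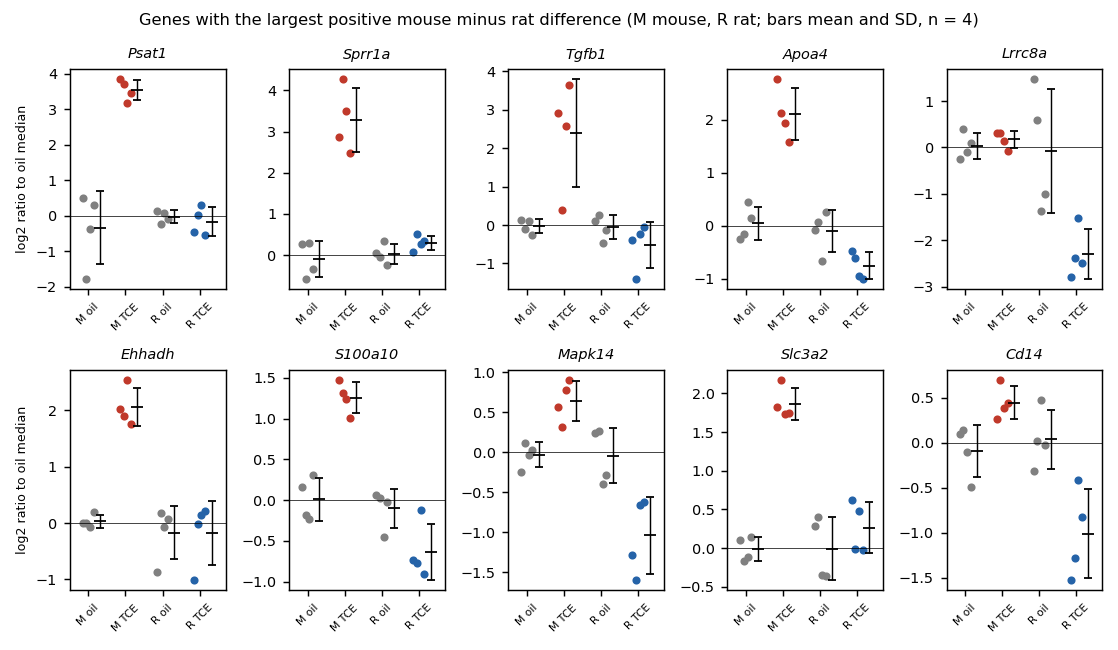
Each panel gives log2 ratios to the oil median on the 16 arrays for 1 of the 10 named genes with the largest positive called difference. M is mouse, R is rat, points are arrays and bars give the mean and SD (n = 4). Psat1, Sprr1a, Apoa4, Ehhadh, S100a10 and Slc3a2 stand apart on all mouse TCE arrays, Tgfb1 has 1 mouse TCE array near the oil arrays, and Lrrc8a is low on rat TCE arrays.

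Gsta3 had the smallest adjusted p of all differences. Its ratios on rat TCE arrays were 4.63, 5.29, 6.92 and 4.11, against 0.834, 0.952, 1.47 and 1.05 on rat oil arrays. On mouse TCE arrays it read 0.765, 0.508, 0.905 and 0.794, against 1.05, 0.951, 0.808 and 1.18 on mouse oil arrays. The rat groups did not overlap and the mouse groups did. It rose by 2.29 ± 0.25 in rat and changed by -0.44 ± 0.24 in mouse, a difference of -2.73 ± 0.34 (adjusted p = 4.63e-05). All 3 rat probe sets rose, by 2.29, 2.66 and 2.73. Alpha-class transferases are close relatives in sequence, and such probe sets can bind more than 1 of them, so which rat gene gave the signal is uncertain.

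The other genes in which rat was higher were of varied function. Epha3, a receptor tyrosine kinase for ephrins, read 9.19, 12.9, 6.10 and 7.84 on rat TCE arrays against 0.785 to 1.56 on rat oil arrays, and 0.320 to 1.02 on mouse TCE arrays against 0.461 to 1.26 on mouse oil arrays. It rose by 3.05 ± 0.52 in rat, with a difference of -3.36 ± 0.77 (adjusted p = 0.0112). Calb1, the calcium buffer calbindin, read 5.88, 2.40, 5.26 and 8.05 on rat TCE arrays against 0.725 to 1.72 on rat oil arrays, with mouse TCE arrays at 0.395 to 1.16. Its difference of -2.61 ± 0.66 (adjusted p = 0.0205) missed the threshold without rat oil 2 (adjusted p = 0.0508). Slc16a7, the monocarboxylate transporter MCT2, read 2.65, 2.67, 2.07 and 2.33 on rat TCE arrays and 0.607 to 1.43 on rat oil arrays. On mouse TCE arrays it read 0.664, 0.520, 0.731 and 0.571, below all mouse oil arrays at 0.741 to 1.32. The changes of 1.33 ± 0.30 in rat and -0.69 ± 0.26 in mouse differed by -2.02 ± 0.39 (adjusted p = 0.00335), and the mouse change alone did not pass (adjusted p = 0.111).

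In a second set the mouse value itself fell. Dnase1l3, a secreted nuclease made in liver by endothelial and macrophage cells, read 0.155, 0.309, 0.137 and 0.130 on mouse TCE arrays against 0.827, 1.05, 1.06 and 0.951 on mouse oil arrays. On rat TCE arrays it read 0.835, 0.586, 1.07 and 0.855, overlapping rat oil arrays at 0.847 to 1.03. It fell by 2.50 on the log2 scale in mouse (SE 0.28) and changed by -0.24 ± 0.19 in rat, a difference of -2.26 ± 0.33 (adjusted p = 0.000388). The highest mouse TCE value was on mouse TCE 2, and without the arrays of Gapdh above 1 the difference was -1.39 (adjusted p = 0.0624). Akap12, an anchoring protein for protein kinase A, read 0.351, 0.159, 0.154 and 0.110 on mouse TCE arrays against 0.839 to 1.52 on mouse oil arrays. Its rat TCE arrays at 0.987 to 1.96 overlapped the oil arrays at 0.845 to 1.34, and the difference was -2.95 ± 0.68 (adjusted p = 0.0112). Nsun4, an RNA methyltransferase of mitochondria, read 0.304, 0.564, 0.305 and 0.222 on mouse TCE arrays, below all mouse oil arrays at 0.576 to 1.19. Its difference of -1.85 ± 0.37 (adjusted p = 0.00445) was -0.99 without the arrays of Gapdh above 1 (adjusted p = 0.256).

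Rraga, a GTPase that signals amino acids to the kinase complex mTORC1, lay apart from the oil arrays in both species: mouse TCE arrays read 0.326 to 0.795, below all oil arrays, and rat TCE arrays 1.64 to 2.34, above all oil arrays. Neither change passed alone (-1.20 with adjusted p = 0.0781 and 0.87 with adjusted p = 0.0789), while the difference of -2.07 ± 0.47 did (adjusted p = 0.00981). The highest mouse TCE value was again on mouse TCE 2, and the difference was -1.09 without the arrays of Gapdh above 1 (adjusted p = 0.169). Bmyc, a relative of the Myc transcription factor, and Ctla4, an inhibitory receptor of T cells, were the weakest of these calls. Bmyc differed by -2.25 ± 0.62 (adjusted p = 0.0349), but its 3 rat probe sets changed by 1.41, -1.32 and 0.17 and their mean gave an adjusted p of 0.376. It also lost the call without any 1 of 9 arrays (mouse oil 3 or 4, mouse TCE 1 or 4, rat oil 1, 2 or 4, rat TCE 1 or 3; adjusted p up to 0.0743). Ctla4 differed by -2.14 ± 0.61 (adjusted p = 0.0418), with mouse oil arrays spread from 0.383 to 2.32. It lost the call when arrays were centred (adjusted p = 0.0666), when its probe sets were averaged (-1.90, adjusted p = 0.104) and without any 1 of 11 arrays, namely mouse oil 2 or 3, any mouse TCE array, rat oil 2 or 4, and rat TCE 1, 2 or 4 (adjusted p up to 0.0953).

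**Figure D3:**
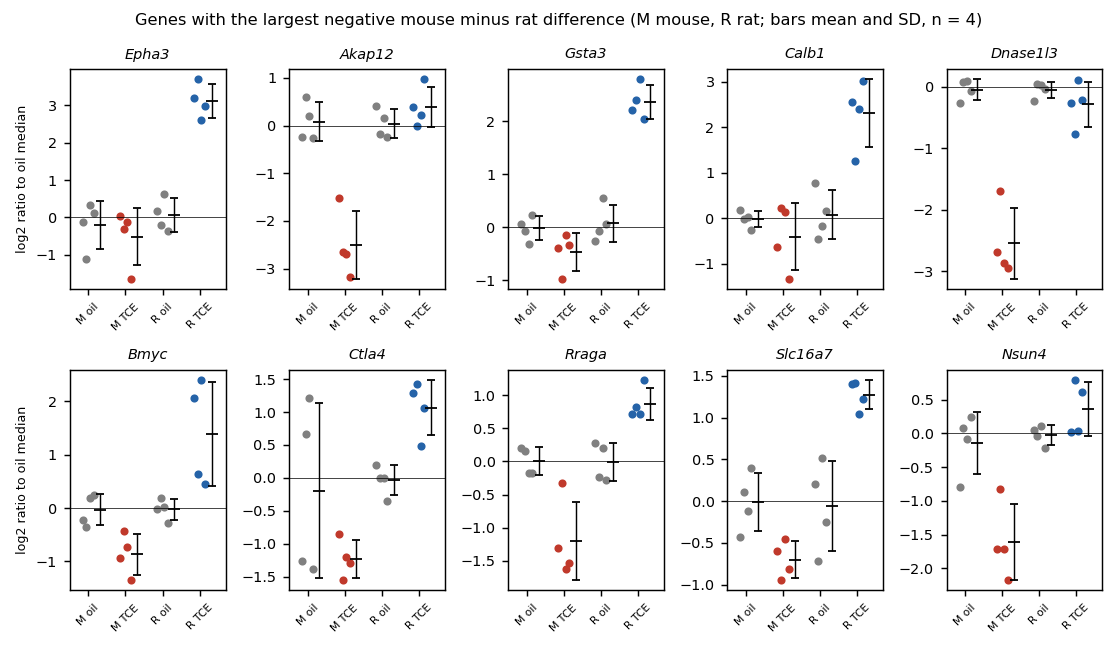
Each panel gives log2 ratios to the oil median on the 16 arrays for 1 of the 10 named genes with the largest negative called difference. M is mouse, R is rat, points are arrays and bars give the mean and SD (n = 4). Epha3, Gsta3, Calb1 and Slc16a7 are high on rat TCE arrays, and Akap12, Dnase1l3 and Nsun4 are low on mouse TCE arrays.

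In both species 9 genes (0.295%) passed the test in the same direction, and none passed in opposite directions. The 3 that rose belong to the proteasome, which degrades ubiquitin-tagged proteins. Psme4, the PA200 activator, read 2.13, 1.88, 2.28 and 2.37 on mouse TCE arrays (oil 0.798 to 1.30) and 2.21, 4.07, 2.05 and 3.15 on rat TCE arrays (oil 0.807 to 1.21). It rose by 1.10 ± 0.24 in mouse and 1.48 ± 0.24 in rat, and the 95% interval of the difference ran from -1.05 to 0.30. The core subunits Psma1 (0.64 in mouse, 0.87 in rat) and Psma2 (0.58 and 0.98) rose in both, with intervals of the difference from -0.70 to 0.26 and from -0.82 to 0.03. Every TCE array of these 3 genes lay above every oil array of its species.

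The 6 that fell in both were led by Cirbp, the cold-inducible RNA-binding protein, which follows body temperature and the circadian clock. It read 0.385, 0.506, 0.425 and 0.411 on mouse TCE arrays (oil 0.854 to 1.16) and 0.381, 0.421, 0.428 and 0.224 on rat TCE arrays (oil 0.777 to 1.06). Its changes were -1.22 ± 0.20 and -1.44 ± 0.27, with an interval of the difference from -0.46 to 0.90. Bckdha, a subunit of the branched-chain ketoacid dehydrogenase, changed by -1.05 and -0.95, and Ivd, the next enzyme of leucine breakdown, by -1.12 and -0.66. Pemt, which makes phosphatidylcholine by methylation, changed by -1.01 and -0.83, and Cyb5r3, cytochrome b5 reductase, by -0.76 and -0.84. The other rat probe sets of Cyb5r3 changed by -0.35, -0.44, -0.74 and 0.28, and none passed the test. F10, coagulation factor X, changed by -0.52 and -0.93, although a second mouse probe set changed by 0.05. Their differences did not pass the test (adjusted p from 0.237 to 0.884 over the 9 genes), which does not show equal effects: for Ivd the interval ran down to -0.92. Only 1 of the 9 passed in both species when the fit held the single-dose arrays alone, and leaving out 1 array gave between 1 and 10 such genes. After centring 7 of the 9 still passed in both, and with the mean of probe sets 5 did.

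**Figure D4:**
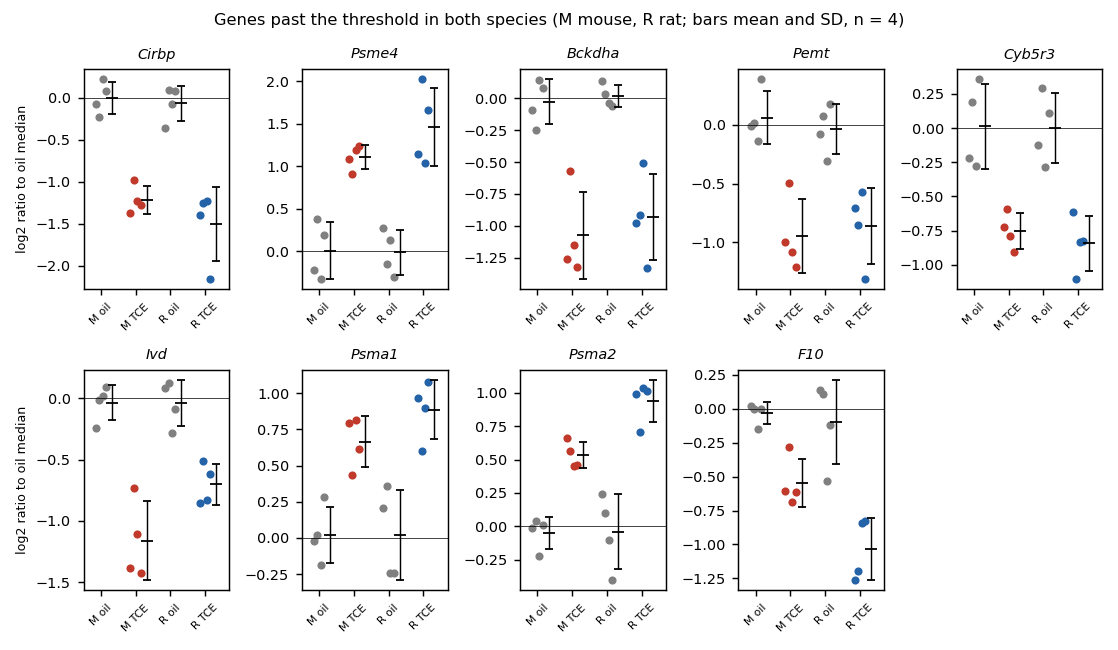
Each panel gives log2 ratios to the oil median on the 16 arrays for 1 of the 9 genes past the threshold in both species; M is mouse, R is rat, points are arrays and bars give the mean and SD (n = 4). Psme4, Psma1 and Psma2 are above the oil arrays and the other 6 below them on all TCE arrays of both species.

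Gene lists were then read against the background shares and the median difference of -0.19 given above. Calls in the lists are on the deposited scaling unless centring is named. Over all shared genes, centring raised the calls higher in mouse from 46 to 110, and it added such calls in several lists. Members named in the next paragraphs without a call of the species difference were chosen after their values were seen. In fatty acid oxidation, 5 of 14 peroxisomal genes rose in mouse and none in rat, and the species difference passed for 3, Ehhadh and the peroxisome assembly factors Pex14 (0.99 ± 0.28, adjusted p = 0.0422; 0.118 with the mean of all probe sets, at 0.86) and Pex6 (0.97 ± 0.27, adjusted p = 0.0378). The median difference of the 14 was -0.01, which is 0.18 above that of all shared genes. Members did not all part: Acaa1b, a peroxisomal thiolase, changed by 1 in mouse (adjusted p = 0.0025) and 1.15 in rat (adjusted p = 0.0638), with a difference interval from -0.83 to 0.53. Pex11a, which promotes peroxisome division, changed by 1.63 in mouse and 0.79 in rat (difference 0.84, adjusted p = 0.0723). Without the arrays of Gapdh above 1, none of the 14 differences passed, that of Ehhadh (2.00) having an adjusted p of 0.0572.

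Of 4 measured genes for microsomal ω-oxidation and acyl-CoA hydrolysis, the difference passed for Aldh3a2, the fatty aldehyde dehydrogenase. It read 2.44, 3.25, 3.13 and 2.89 on mouse TCE arrays against 0.840 to 1.08 on oil arrays, and 0.804 to 1.37 on rat TCE arrays against 0.768 to 1.11. Its difference was 1.35 ± 0.24 (adjusted p = 0.00144), but 2 further rat probe sets changed by 0.93 and 0.77, and with the mean of all probe sets the adjusted p was 0.487. Acot1, an acyl-CoA thioesterase, rose by 2.38 ± 0.23 in mouse and changed by 0.78 ± 0.66 in rat, and the difference of 1.6 did not pass (adjusted p = 0.191). Among 16 mitochondrial oxidation genes the difference passed on the deposited scaling for Etfa alone, the electron transfer flavoprotein subunit. It was -1.03 ± 0.26 (adjusted p = 0.0202, and 0.0571 after centring). After centring 3 of the 16 were called higher in mouse and 0 lower. These were Cpt2 (1.02, adjusted p = 0.0253), Acadm (0.83, adjusted p = 0.0400) and Acads (1.04, adjusted p = 0.0450). The difference of Apoa4 was the only one called among 23 genes of lipid uptake and storage. After centring 2 of the 23 were called higher in mouse, the other being Dgat1 (0.99, adjusted p = 0.0338). None was called among 9 fatty acid synthesis and 14 cholesterol synthesis genes.

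Among enzymes that handle TCE and its metabolites, the calls were in genes with rat changes of 0.87 to 1.55 or a rat fall. Of 14 such genes, 2 aldehyde dehydrogenases had a lower mouse effect. Aldh1a1 read 2.76, 2.77, 2.84 and 2.51 on rat TCE arrays against 0.523 to 1.46 on rat oil arrays, and 1.11 to 1.45 on mouse TCE arrays against 0.951 to 1.25. It rose by 1.55 ± 0.28 in rat, with a difference of -1.31 ± 0.32 (adjusted p = 0.0188). With the mean of all probe sets it was -1.24 (adjusted p = 0.137). Aldh3a1 differed by -1.40 ± 0.31 (adjusted p = 0.00843), and its change passed in neither species alone. Gstt2, a theta-class glutathione transferase, read 0.374 to 0.541 on rat TCE arrays against 0.615 to 1.06 on rat oil arrays. It fell by 1.01 in rat on the log2 scale, and the difference was 1.18 ± 0.31 (adjusted p = 0.0314). A second rat probe set of Gstt2 changed by -0.21, and with the mean of all probe sets the difference was 0.78 (adjusted p = 0.144). Cyp2e1, the main P450 for TCE, changed by -0.06 in mouse and -0.30 in rat, with a difference interval from -0.14 to 0.63. Among 14 glutathione transferases only Gsta3 and Gstt2 were called, in opposite directions.

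Known NRF2 targets did not differ by the test in any of 17 cases, a list that does not include Gsta3. The largest differences were those of Gclc (-1.35 ± 0.65, adjusted p = 0.230) and Nqo1 (-1.14 ± 0.59, adjusted p = 0.262), with the larger rise in rat on the probe sets used. A second mouse probe set of Nqo1 changed by 1.30 (adjusted p = 0.0842) and a second rat one by 1.63 (adjusted p = 0.267). With the mean of all probe sets the Nqo1 difference was -0.73 (adjusted p = 0.520). Gclc, the catalytic subunit of glutathione synthesis, had rat TCE ratios of 3.09, 3.43, 3 and 4.6 against 0.680 to 1.21 on rat oil arrays, and mouse TCE ratios of 1.01 to 1.64 against 0.821 to 1.16. The rat groups did not overlap, yet the rat change of 1.87 ± 0.59 had an adjusted p of 0.111. In mouse 4 of the 17 rose and in rat 1, Gclm, the regulatory subunit (1.37, adjusted p = 0.0499; 0.70 in mouse, adjusted p = 0.0782).

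Among genes of protein quality control, more passed the test upward in mouse than in rat, as among all shared genes (4.42% and 1.34%). The counts of these lists were not tested against those shares. Of 26 proteasome genes, 8 rose in mouse and 5 in rat, and 3 of these, Psme4, Psma1 and Psma2, were the same genes. The difference passed upward for Psmc3 (1.36 ± 0.35, adjusted p = 0.0224), an ATPase of the regulatory particle, and for Psma7 (0.90 ± 0.23, adjusted p = 0.0205). The other mouse probe sets of Psmc3 changed by -0.06 and 0.66, and with the mean of all probe sets its difference was 0.92 (adjusted p = 0.173). It passed downward for Psma4 (-0.72 ± 0.20, adjusted p = 0.0339; 0.149 after centring), which rose in rat by 0.70 with a mouse change of -0.01. Of 21 heat shock genes, 7 rose in mouse and none in rat, with medians of 0.44 and -0.02. The species difference passed for 1 of them, the HSP90 co-chaperone Fkbp4 (1.04 ± 0.28, adjusted p = 0.0335), so the counts of 7 and none are not a tested difference between species. A second mouse probe set of Fkbp4 changed by -0.19, and with the mean of all probe sets its difference was 0.41 (adjusted p = 0.632). Psat1 and Slc3a2 were called among 11 genes of serine synthesis and the ATF4 programme, while Asns changed by 0.11 in mouse and -0.20 in rat and Phgdh by -0.53 and -0.04.

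Among plasma proteins made by hepatocytes, more passed the test downward in mouse than in rat, as among all shared genes (5.24% and 0.654%). That contrast of counts was not itself tested. Of 20 coagulation genes, 7 fell in mouse and 1, F10, in rat, and the difference passed for the fibrinogen chains Fga (-0.90 ± 0.20, adjusted p = 0.00668) and Fgg (-0.73 ± 0.19, adjusted p = 0.0269). Fga read 0.560, 0.563, 0.770 and 0.590 on mouse TCE arrays against 0.791 to 1.31 on oil arrays, and 1.03 to 1.23 on rat TCE arrays against 0.904 to 1.05. The third chain, Fgb, changed by -0.92 in mouse and -0.17 in rat (difference -0.74, adjusted p = 0.0607). After centring, the difference of Fga still passed (adjusted p = 0.0421) and that of Fgg did not (adjusted p = 0.126). Of 13 complement genes, 4 fell in mouse and none in rat, and only C9, of the membrane attack complex, was called. Its difference was -0.94 ± 0.26 (adjusted p = 0.0339, and 0.0984 after centring). After centring 1 other complement gene was called higher in mouse. Of 27 acute phase genes, Stat3 and Azgp1 were called lower in mouse (-0.94 and -0.73), and neither was called after centring or when probe sets were averaged (adjusted p = 0.172 at -0.997 and 0.0994 at -0.80).

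In intermediary metabolism a few enzymes stood apart. Glul, the glutamine synthetase of pericentral hepatocytes, read 0.537, 0.460, 0.425 and 0.276 on rat TCE arrays against 0.724 to 1.15 on rat oil arrays, and 0.807 to 1.24 on mouse TCE arrays against 0.712 to 1.07. It fell by 1.21 in rat, and the difference was 1.20 ± 0.29 (adjusted p = 0.0179). A second mouse probe set of Glul changed by -0.76 (adjusted p = 0.0668), against -0.01 for the one used. The other rat probe sets changed by -0.69 to -0.96, and none passed the test. With the mean of all probe sets the Glul difference was 0.53 (adjusted p = 0.298). Slc37a4, the glucose-6-phosphate transporter, read 0.413 to 0.529 on rat TCE arrays against 0.762 to 1.11, and its difference was 0.87 ± 0.21 (adjusted p = 0.0140) and 0.56 without the arrays of Gapdh above 1 (adjusted p = 0.374). Pccb, a subunit of propionyl-CoA carboxylase, fell by 0.84 in mouse with a rat change of 0.26, a difference of -1.10 ± 0.25 (adjusted p = 0.00971). It was the only call among 25 amino acid catabolism genes, of which 6 fell in mouse and 3 in rat. After centring 3 of the 25 were called higher in mouse and 1 lower. Slc10a1, the bile acid uptake carrier NTCP, fell by 0.81 in mouse with a rat change of 0.36 (difference -1.17 ± 0.31, adjusted p = 0.0318; 0.0584 after centring, and 0.195 at -0.91 when probe sets were averaged). Lamp2, a lysosomal membrane protein, fell by 1.03 in mouse with a rat change of 0.48 (difference -1.51 ± 0.27, adjusted p = 0.00172). Rpl13a was the only one of 15 ribosomal protein genes called (1.15 ± 0.24, adjusted p = 0.00522). After centring 2 of the 15 were called higher in mouse.

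Single calls were spread over the remaining lists. Nr1d1, the clock repressor REV-ERBα, fell by 0.89 in mouse with a rat change of 0.32, a difference of -1.22 ± 0.32 (adjusted p = 0.0293; 0.0742 after centring, and 0.0586 at -1.26 when probe sets were averaged). Ercc1, of nucleotide excision repair, read 3.72, 2.43, 4.02 and 2.70 on mouse TCE arrays against 0.928 to 2.15 on oil arrays, and 0.896 to 1.04 on rat TCE arrays against 0.856 to 1.02. Its difference was 1.44 ± 0.40 (adjusted p = 0.0367) and 1.05 without the arrays of Gapdh above 1 (adjusted p = 0.372). Of the cell death regulators, Bak1 (-1.13) and Bcl2 (-0.98) were called lower in mouse, and neither was called after centring. With the mean of its 3 probe sets per species, the difference of Bcl2 was 0.15 (adjusted p = 0.849). Papss2, which makes the sulfate donor for conjugation, fell by 1.20 in mouse with a rat change of -0.09 (difference -1.11 ± 0.32, adjusted p = 0.0471; 0.120 after centring). Of 36 respiratory chain genes, Cox4i1 was called higher (1.02 ± 0.21, adjusted p = 0.00548; 0.0988 with the mean of all probe sets) and Sdha lower (-0.86 ± 0.21, adjusted p = 0.0196; 0.0666 after centring). No difference was called among 15 interferon response, 23 immediate early, 28 cell cycle, 18 endoplasmic reticulum stress or 22 growth hormone, IGF and EGF receptor genes. After centring 1 of the 28 cell cycle genes was called higher in mouse.

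Hnf4a, a hepatocyte identity factor, and Nr5a2, a nuclear receptor of bile acid synthesis, had large differences that did not pass in the fit used above. Hnf4a read 0.214, 0.174 and 0.172 on mouse TCE 1, 3 and 4 and 0.878 on mouse TCE 2, and its difference of -1.98 ± 0.67 (adjusted p = 0.0873) was -0.31 with the Gapdh value as a covariate. Nr5a2 read 15.9, 11.7, 6.49 and 2.13 on rat TCE arrays against 0.649 to 1.74 on rat oil arrays, and its mouse TCE arrays read 0.916 to 1.47. The lowest of these rat TCE values was on rat TCE 4, the rat array with Gapdh above 1. The Nr5a2 difference was -2.65 ± 0.83 (adjusted p = 0.0660), and its rat change of 2.81 ± 0.78 had an adjusted p of 0.0789. The difference was -3.30 with the Gapdh value as a covariate (adjusted p = 0.0103) and -3.12 with the mean of all probe sets (adjusted p = 0.0332). With quantile normalization it was -2.18 (adjusted p = 0.352).

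**Figure D5:**
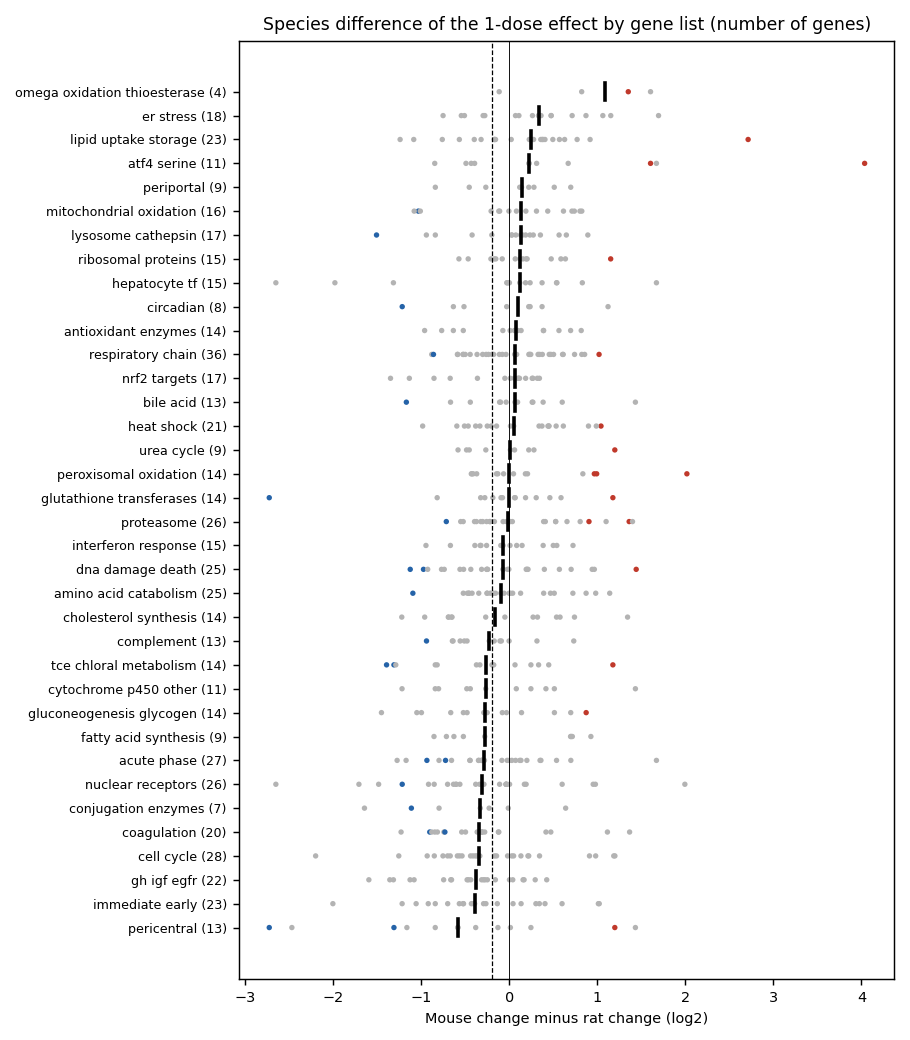
Each row is a gene list (number of measured genes), each point a gene at its mouse change minus rat change (log2), red where higher in mouse and blue where lower at adjusted p under 0.05; short bars are list medians and the dashed line is the median of all shared genes, -0.19. Psat1 at 4.04 and Gsta3 at -2.73 lie far outside their lists, and most points are grey.

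List means of endothelial, macrophage and hepatocyte markers read lower on mouse TCE arrays than on mouse oil arrays. Within mouse, 1 of 8 endothelial, 0 of 9 macrophage and 1 of 8 hepatocyte genes fell past the threshold. The median log2 ratio of all probe sets also lay 0.09 lower on mouse TCE arrays. The mean log2 ratio of 8 endothelial genes was -0.72 to -0.52 on mouse TCE arrays against -0.16 to 0.14 on mouse oil arrays, and -0.27 to 0.29 on rat TCE arrays against -0.24 to 0.22 on rat oil arrays. Dnase1l3 is 1 of these 8, and it alone had a called difference. The mean of 9 macrophage genes was -0.67 to -0.55 on mouse TCE arrays against -0.27 to 0.10 on oil arrays, and -0.47 to 0.25 in rat against -0.32 to 0.24. Cd14 is 1 of these 9, with a mouse change of the opposite sign (0.54). The mean of 8 hepatocyte genes was -0.55 to -0.45 on mouse TCE arrays against -0.11 to 0.08 on mouse oil arrays. In rat it was -0.26 to -0.06 on TCE arrays against -0.11 to 0.09 on oil arrays. The median change of these 8 genes was -0.27 in mouse and -0.18 in rat. Hnf4a, lowest on the mouse TCE arrays with Gapdh above 1, is 1 of the 8, with a mouse change of -1.80. The part of cell composition in the results for Dnase1l3, Cd14 and the plasma proteins was not tested. The mean of 4 erythroid genes was -0.59 to -0.19 on mouse TCE arrays against -0.19 to 0.17 on mouse oil arrays. In rat it was -0.57 to 0.14 on TCE arrays against -0.15 to 0.30 on oil arrays. None of the 4 had a called species difference. Alas2, 1 of the 4, changed by -1.30 in mouse (adjusted p = 0.00253) and -0.65 in rat (adjusted p = 0.370). For lists of stellate, bile duct, lymphocyte, neutrophil, exocrine pancreas, and fat and muscle genes, TCE and oil arrays overlapped in mouse. Among all their members only Tgfb1 and Sparc were called. After centring 2 stellate genes were called higher in mouse and 0 lower. Sparc, a matrix protein of stellate cells, differed by -1.26 ± 0.33 (adjusted p = 0.0290; 0.0744 after centring). The mean log2 ratio of 15 pancreas genes reached 3.06 on mouse TCE arrays, 2.28 on mouse oil arrays and 3.62 on rat oil arrays, and none of the 15 was called. Rnase1, the pancreatic ribonuclease, read 92.5 on mouse TCE 3, 147 on mouse TCE 4, 56.6 on mouse oil 3 and 30.0 on rat oil 3.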

How the data were processed

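Per the submitters' processing notes, signals were made with MAS5; its version and any scaling are not given in the sources used here. The deposited values were ratios: from the values, each probe set with no missing value had an oil median of 1, within 0.0005, in its species and schedule. Within each single-dose group no 2 arrays shared more than 0.00206 of their values, so none was counted as a copy. Other pairs of arrays were not compared.

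Control probe sets (66 in mouse, 59 in rat) were left out of tests, leaving 12422 and 8740. Log2 ratios entered limma 3.58.1 (lmFit and eBayes in R 4.3.3) with a mean per group: 16 arrays per species for TCE against oil, and all 32 arrays (8 groups, 24 residual degrees of freedom) for mouse effect minus rat effect. Repeated-dose arrays only added to the spread. Benjamini-Hochberg adjustment covered all probe sets or all 3056 genes, with a threshold of 0.05. Where a gene had several probe sets in a species (1647 genes), the least variable within groups was used. No floor or filter on low values was possible, since ratios hold no brightness, and precision is limited by how many arrays there are. The model was tested on simulated data.

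The members and the 47 lists were chosen with earlier results of these data known. Named genes were the 10 largest differences each way among genes past the threshold with TCE arrays beyond all oil arrays in a species, the genes changed alike in both, and up to 4 called or otherwise up to 2 members per list; genes named beyond this were chosen after their values were seen. Mouse promoters came from RefSeq, GRCm38.p6. Replicate numbers were not taken as pairs: correlations of same-numbered arrays' deviations were 0.05 to 0.08 in mouse and -0.12 to 0.07 in rat. Each mouse array still matched its own number best, so whether the numbers mark pairs in mouse is not known. Alternatives were quantile normalization, array centring, log2(ratio + 0.1), single-dose arrays alone, a variance per species, a replicate block, mean probe sets, leaving out the noisiest 40% of genes, the Gapdh 3′ minus 5′ value as covariate, leaving out arrays with it above 1, and leaving out each array. Figures used matplotlib 3.10.9.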

Additional observations from a re-analysis of the deposited data

Results flagged for a closer look

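The 20 genes flagged here had the largest differences among those past the threshold of the species difference. Their TCE arrays also lay beyond all oil arrays in at least 1 species. Passing the test was thus a condition of the choice and adds no separate evidence. Differences as large that did not pass were left out, such as those of Rnase1 (2.67) and Nr5a2 (-2.65). The mouse effect was higher by 4.04 for Psat1, 3.09 for Sprr1a, 2.89 for Tgfb1, 2.71 for Apoa4, 2.36 for Lrrc8a, 2.02 for Ehhadh, 1.78 for S100a10, 1.67 for Mapk14, 1.6 for Slc3a2 and 1.59 for Cd14, all on the log2 scale. The difference was -3.36 for Epha3, -2.95 for Akap12, -2.73 for Gsta3, -2.61 for Calb1, -2.26 for Dnase1l3, -2.25 for Bmyc, -2.14 for Ctla4, -2.07 for Rraga, -2.02 for Slc16a7 and -1.85 for Nsun4.

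Single arrays stood far from the other 3 of their group in 6 of 132 groups checked, where chance alone gives about 1 in 20. S100a10 read 0.730 on rat oil 3, Psma2 read 1.63 on rat TCE 2 and F10 read 0.902 on mouse oil 3, each below the rest of its group. The Gapdh 3′ minus 5′ log2 value was 0.0935 on mouse TCE 2, below the other mouse TCE arrays. On rat TCE 4 the β-actin value was 0.99, above the other rat TCE arrays, and the median log2 ratio was 0.0552, below theirs.

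The repeated-dose arrays took no part in the comparison beyond the estimate of spread. On them, 39 of the 129 genes again differed between the species in the same direction at adjusted p under 0.05, while 321 of all 3056 genes did so in either direction.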

How the results depend on the processing

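Array scaling, the arrays of 5′ loss, the noise filter and single arrays all moved counts, and the files hold no brightness with which to weight a probe set. Of 129 species differences, quantile normalization left 7, leaving out the noisiest 40% of genes gave 200, and leaving out the 10 arrays with a Gapdh value above 1, which leaves 1 mouse TCE array assumed to vary like other groups, gave 36. Centring, log2(ratio + 0.1), a variance per species, single-dose arrays alone, mean probe sets and the Gapdh covariate gave 91 to 147. In each of these settings, 71 to 128 of the calls were among the 129. Of 1031 mouse probe sets, quantile normalization left 59, the covariate 278 and leaving out the Gapdh arrays 18. For rat (150) the same settings gave 2, 256 and 29, single-dose arrays alone 69 and the noise filter 441. For the 9 genes changed in both they gave 0, 5 and 0, single-dose arrays alone 1 and the noise filter 40. The correlation of effects across genes, 0.136, was 0.24 with the noise filter and 0.0752 without the Gapdh arrays. The labels do not say whether replicate numbers pair the samples. Each mouse array matched its own number best, and 1 of 4 rat arrays did. With a replicate block the counts were 106, 725, 59 and 2. Leaving out 1 array gave 81 to 181 differences (81 without rat oil 2, 82 without mouse TCE 1), 519 to 1187 mouse and 22 to 128 rat probe sets, 1 to 10 shared changes and correlations of 0.104 to 0.152. The mouse count was lowest without mouse TCE 1 (519) and below 1031 by over 1.5 times without mouse oil 2 (596), oil 3 (555), TCE 3 (653) and TCE 4 (611). The rat count fell so without rat oil 2 (38), oil 4 (31), TCE 1 (22), TCE 2 (55) and TCE 4 (25). Shared changes numbered 5 without mouse TCE 1, 2 without rat oil 2, 3 without rat TCE 2, and 1 without rat oil 4, TCE 1 or TCE 4. The cause of these moves was not tested, beyond the fewer arrays or genes in each fit. Of the 20 flagged differences, chosen among those called, none reversed in these alternatives, of which the noise filter kept 11 to evaluate. Whichever single array was left out, 16 kept the call, all but Lrrc8a, Calb1, Bmyc and Ctla4. Quantile normalization kept the calls of 6, the covariate 12 and leaving out the Gapdh arrays 7. Of the 14, 8 and 13 lost calls, 14, 6 and 9 had differences within 1.5 times the reported value.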

Other observations

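After 14 daily doses, some of the single-dose differences were seen again and others were not. Of the 129 genes, 96 (74.4%) had a difference of the same sign, as did 58.1% of all shared genes. The 39 called again in the same direction comprised 7 of the 46 that were higher in mouse and 32 of the 83 that were lower, and 1 gene was called in the opposite direction. The median repeated-dose difference of all shared genes was -0.23, an offset on the side of the lower genes. Calls on both schedules used the same spread per gene, so they are not independent. Gsta3 differed by -4.11 (limma adjusted p = 7.67e-09), with a rat rise of 3.68, and Slc16a7 by -2.16 (adjusted p = 0.000761). Psat1 differed by 2.80 (adjusted p = 0.00726), with a mouse rise of 2.96, and Lrrc8a by 2.14 (adjusted p = 0.0294), with a rat fall of 2.76 on the log2 scale. S100a10 differed by 1.08 (adjusted p = 0.0135) and Rraga by -1.60 (adjusted p = 0.0258).

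Ehhadh rose in both species on those arrays, by 2.35 in mouse and 1.48 in rat, and the difference of 0.87 did not pass (adjusted p = 0.108). Sprr1a, which differed by 3.09 after 1 dose, differed by 0.42 (adjusted p = 0.632), with a mouse change of 0.18. Epha3 differed by -0.10 (adjusted p = 0.947), with a rat change of 0.75. Tgfb1 (-0.94) and Calb1 (1.14) had differences of the opposite sign that did not pass (adjusted p = 0.418 and 0.272). Of the genes changed alike after 1 dose, Psma1 and Psma2 rose again in rat (0.98 and 0.96) and had mouse changes of -0.28 and -0.16, and both differences were called (adjusted p = 0.000984 and 0.000884). Cirbp fell by 1.85 in rat and changed by -0.57 in mouse, a difference of 1.27 (adjusted p = 0.0140). Ivd fell by 0.79 in mouse with a rat change of -0.0025, a difference of -0.78 (adjusted p = 0.0237). Whether effects differed between the schedules was not tested for these genes.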
